A study of Mus musculus with 2 samples.

Results

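The genes described here encode the machinery that brings proteins into the endoplasmic reticulum (ER), folds them there and removes those that fail to fold. A list of 34 genes was drawn up by known function, and all 34 averaged 10 counts or more over the 2 libraries, as did 14379 genes of the whole table. The nearest to the limit was Derl3, with a mean of 17.5 counts. The members fall into 5 classes: 11 chaperones with their cofactors, 4 disulfide isomerases, 7 translocon subunits, 9 genes of ER-associated degradation (ERAD) and 3 genes of the stress sensing pathways. The cells were bone marrow derived macrophages of C57BL/6 mice. The treated library came from macrophages given the interleukin-1 family cytokine IL-36 gamma, and the control library from macrophages given no treatment. The sources used here do not give dose, duration, the number of mice or any pooling of cells. The question is how transcript levels differ with the cytokine. With 1 library per group, differences stand without replicates and p-values.

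Secretory and membrane proteins enter the ER through the SEC61 channel, and the chaperone BiP and the lectins calnexin and calreticulin hold them while isomerases form their disulfide bonds. Proteins that stay misfolded are drawn back to the cytosol and destroyed by ERAD. When unfolded proteins accumulate, the sensors IRE1, ATF6 and PERK start the unfolded protein response, in which XBP1 and ATF6 raise transcription of chaperone and ERAD genes, in part through promoter sites called ER stress response elements (ERSE). In macrophages, secreted cytokines, complement proteins and surface receptors pass through the ER.

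The ERSE sites of these promoters are shown first because BiP and several other members are known targets of this response. The ERSE searched was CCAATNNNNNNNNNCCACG, the shorter ERSE-II was ATTGGNCCACG and the unfolded protein response element (UPRE) was TGACGTGG, each on both strands and with no mismatch. RefSeq promoter windows (GRCm38.p6), from 250 bases before to 50 bases after the start of transcription, were found for 28 of the 34 members. An ERSE lay in the windows of 9 members and an ERSE-II in those of 2 others, so that 11 of 28 genes (39.3%) held either, against 0.181% of all 27025 genes with a window. A site with up to 1 mismatch to the ERSE lay near 16 of the 28 members (57.1%) and 1.72% of all genes. No window of a member held the UPRE in the exact letters searched, which lay near 0.714% of all genes. Other forms of the UPRE were not searched. The Hspa5 promoter printed below holds tgacgtga, which differs from the searched letters in the last one only. In the lines below each site is read in the direction of the motif with 15 bases on either side, and capitals mark the fixed letters. The site of Dnajb11 lies just after the start and is shown without flanks. An ERSE-II and an ERSE read on opposite strands can share the letters of their CCAAT box, but no window here held both.
Hspa5, chr2:34772010-34772058: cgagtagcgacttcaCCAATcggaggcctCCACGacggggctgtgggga
Hsp90b1, distal, chr10:86705623-86705671: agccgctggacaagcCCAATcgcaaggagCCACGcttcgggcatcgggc
Hsp90b1, proximal, chr10:86705518-86705566: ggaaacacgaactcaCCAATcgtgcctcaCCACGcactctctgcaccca
Calr, chr8:84847060-84847108: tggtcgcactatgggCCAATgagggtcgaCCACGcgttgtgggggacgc
Canx, chr11:50325785-50325833: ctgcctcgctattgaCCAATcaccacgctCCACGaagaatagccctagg
Creld2, chr15:88819505-88819553: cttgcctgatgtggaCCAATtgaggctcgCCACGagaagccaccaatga
Dnajc3, chr14:118937812-118937860: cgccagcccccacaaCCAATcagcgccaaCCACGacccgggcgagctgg
Pdia6, chr12:17266476-17266524: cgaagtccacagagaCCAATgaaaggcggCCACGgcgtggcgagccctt
Syvn1, chr19:6046517-6046565: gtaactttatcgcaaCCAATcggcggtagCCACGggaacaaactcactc
Derl3, chr10:75893227-75893275: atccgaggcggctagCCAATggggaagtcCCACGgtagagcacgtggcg
Herpud1 (ERSE-II), chr8:94386362-94386402: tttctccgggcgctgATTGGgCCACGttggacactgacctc
Dnajb11 (ERSE-II), chr16:22857852-22857862: ATTGGcCCACG

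The sites gathered among the chaperones, where 7 of 9 genes with a window held an ERSE or ERSE-II. So did 1 of 4 isomerases and 3 of 8 ERAD genes, and none of the 5 translocon genes or the 2 genes of the stress sensor class. The site of Hspa5, the gene of BiP, lay from position -65 to -47. The 250 bases before its start (chr2:34771840-34772089, plus strand) are shown because BiP is the best known target of this response, with the fixed letters of the ERSE in capitals.
Hspa5 promoter: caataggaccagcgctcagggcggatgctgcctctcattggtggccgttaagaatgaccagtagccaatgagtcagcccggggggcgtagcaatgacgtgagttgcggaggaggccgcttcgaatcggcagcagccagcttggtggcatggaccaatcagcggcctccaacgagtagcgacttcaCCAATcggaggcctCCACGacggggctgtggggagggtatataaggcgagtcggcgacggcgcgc

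**Figure D1:**
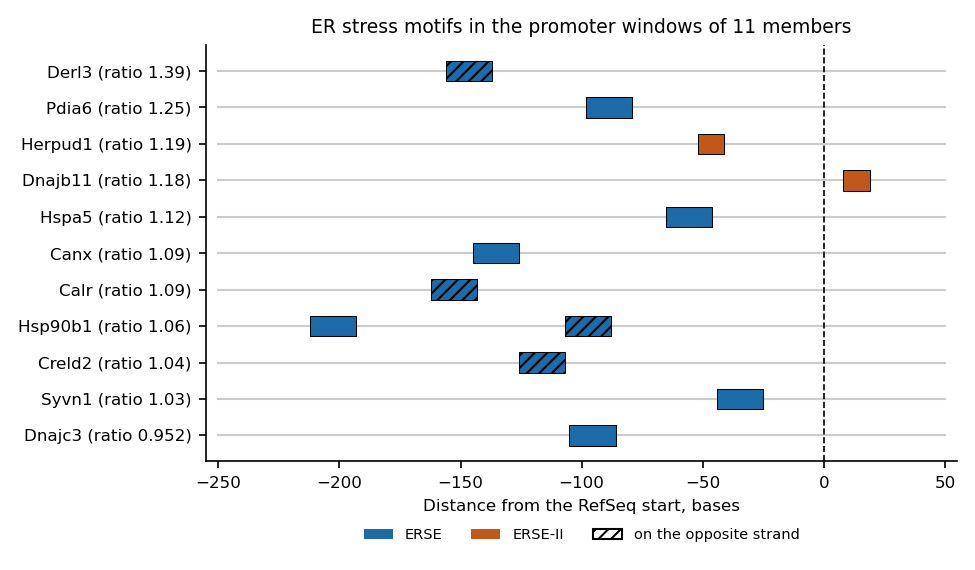
Position of ERSE (blue) and ERSE-II (orange) matches in the promoter windows of 11 members, in bases from the RefSeq start, with hatching where the motif reads on the strand opposite to the gene and the count ratio, IL-36 gamma over control, beside each name. All sites but that of Dnajb11 lie ahead of the start, and genes with a site have ratios from 0.952 to 1.39.

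The data are gene counts without replicates. The IL-36 gamma library held 17267900 counts in genes and the control library 17426367, and ratios below are IL-36 gamma over control after scaling, with an exact 95% (Clopper-Pearson) interval that covers counting error only. The 11 macrophage markers summed to 31435 scaled counts per 1000000 (CPM) with IL-36 gamma and 31594 CPM in the control, and none was at 0. The 13 neutrophil markers summed to 312.9 CPM and 193.0 CPM, with 8 of 11 measured above 1. The highest was S100a8, with 1274 counts with IL-36 gamma and 844 in the control. Plasma and B cell markers summed to 104.6 CPM and 119.3 CPM, the highest being Sdc1 with 742 and 1078 counts. Fibroblast markers summed to 7.94 CPM and 13.2 CPM with Lum, Pdgfra and Thy1 at 0 in both. The highest was Col1a1, with 68 and 104 counts. T cell markers summed to 7.71 CPM and 13.6 CPM with Cd3e, Cd3g and Cd8a at 0 in both. Cd4 alone held 128 of the 131 T cell marker counts with IL-36 gamma and 232 of 240 in the control. Dendritic cell markers summed to 34.3 CPM and 48.0 CPM, with Cd209a and Siglech at 0 in both. Itgax held 332 of their 583 counts with IL-36 gamma and 644 of 850 in the control. Of the 2 dendritic cell markers measured, 1 was above 1 and the other, Itgax, below. The 13 mitochondrially encoded genes summed to 10510 CPM and 11950 CPM. The part of these shifts in the ratios below was not tested, and in bulk RNA a change in the cells present and a change of RNA per cell cannot be told apart.

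Transcripts of ER folding and translocation were slightly more abundant in the IL-36 gamma library. Together the 34 genes took 4972 CPM there and 4524 CPM in the control, a ratio of 1.10 (1.09 to 1.11). The interval lay wholly above 1 for 22 of 34 members (64.7%), against 19.1% of all genes tested, and wholly below 1 for 2 members (5.88%), Sel1l and Ern1, against 17.4% of all genes. The median log2 ratio of the members was 0.15, against 0.00 over all genes. No interval lay wholly above an increase of 25% or wholly below the matching ratio of 0.8, while 1.43% of all genes were higher and 2.66% lower by this rule. Most members are abundant and so have narrow intervals. Among 5807 abundant genes, those with mean counts of 500 or more, which include 31 members, 33.7% had an interval above 1 and 23.4% below 1, and 1.67% lay past the 25% limit on the higher side and 2.46% past 0.8 on the lower side. Of those 31 members, 22 were above 1 (71.0%) and 2 below (6.45%).

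**Figure D2:**
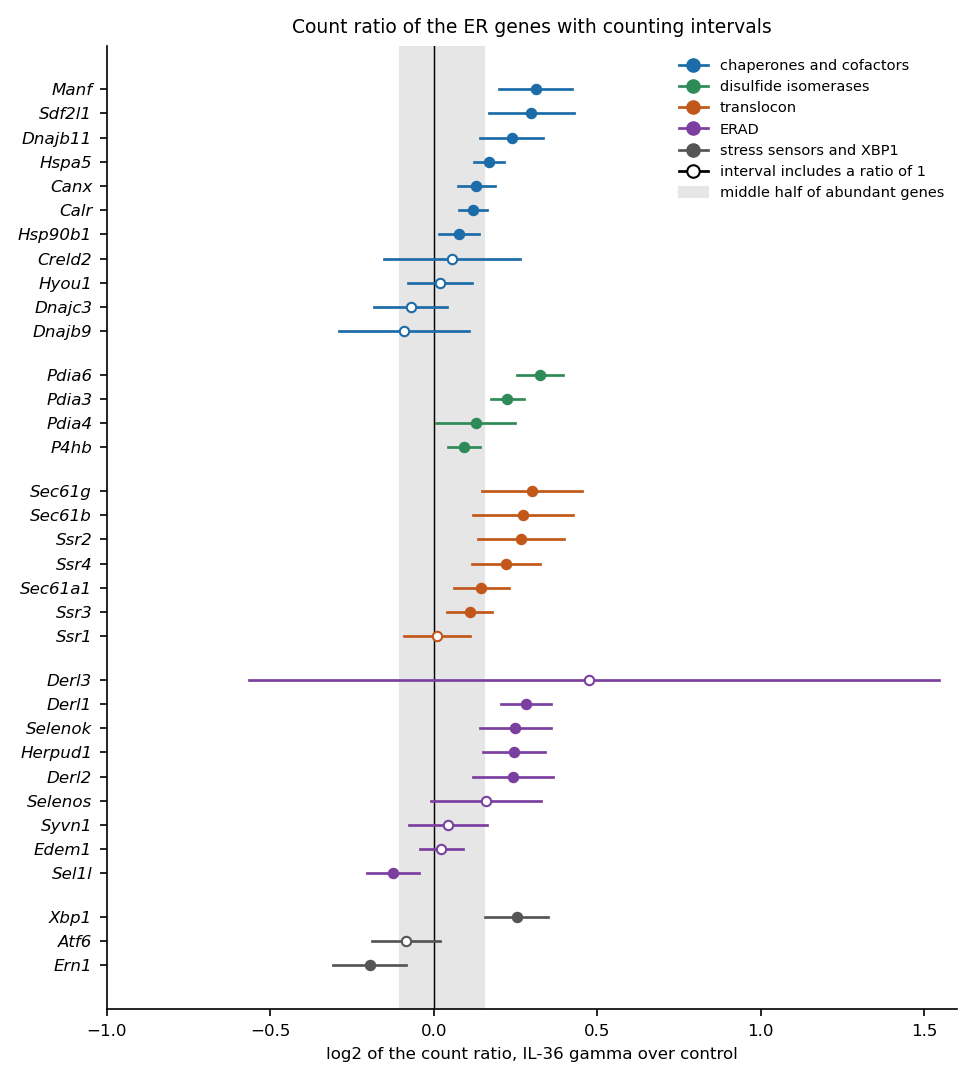
Log2 of the count ratio, IL-36 gamma over control, of the 34 members by class, with exact 95% intervals of counting error and open circles where the interval includes a ratio of 1; the grey band spans the lower to the upper quartile of the abundant genes. Of the members, 22 lie above a ratio of 1 with their whole interval and Sel1l and Ern1 below it.

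Class medians lay above 0 in every class but the stress sensors. The median log2 ratio was 0.12 in chaperones, 0.18 in disulfide isomerases, 0.22 in translocon subunits and 0.24 in ERAD genes. With the trend on exon length described below removed among abundant genes, these medians were 0.09, 0.05, 0.12 and 0.06. The order of the classes thus changed with length. In the 3 genes of the stress sensor class the median was -0.08. It was 0.0091 with the trend on exon length removed among abundant genes and 0.0289 with that trend removed over all genes. Intervals lay above 1 in 7 of 11 chaperones, 4 of 4 isomerases, 6 of 7 translocon subunits, 4 of 9 ERAD genes and 1 of 3 sensor genes. Differences between classes were not tested, since members of a class are not replicates.

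Among chaperones, the highest ratios were those of small cofactors that work with BiP. Manf (chr9), a secreted protein that binds BiP, had 1454 counts with IL-36 gamma and 1221 in the control, a ratio of 1.24 (1.15 to 1.34). Sdf2l1, which binds the co-chaperone ERdj3, had 1050 and 890 counts, a ratio of 1.23 (1.12 to 1.35). Dnajb11, the gene of ERdj3 itself, had 1900 counts with IL-36 gamma and 1679 in the control, a ratio of 1.18 (1.10 to 1.26). All 3 genes were above 1 with their whole interval. With the trend of ratios on exon length removed among abundant genes, as given below, the interval of Sdf2l1 included 1 (0.974 to 1.17).
Hspa5 (ENSMUSG00000026864), the Hsp70 chaperone BiP at the centre of ER folding, had 7619 counts with IL-36 gamma and 7065 in the control, a ratio of 1.12 (1.09 to 1.16). The lectin chaperone genes, which hold newly glycosylated proteins, had nearly equal ratios. Calr had 9219 and 8839 counts, a ratio of 1.09 (1.06 to 1.12), and Canx had 5328 and 5074, a ratio of 1.09 (1.05 to 1.14). Hsp90b1, the ER form of Hsp90, had 4290 and 4237 counts, a ratio of 1.06 (1.01 to 1.10). The intervals of Calr (0.984 to 1.04), Canx (0.997 to 1.08) and Hsp90b1 (0.964 to 1.05) included 1 with the trend on expression removed. That of Hsp90b1 did so also with total gene counts as the scale and with the trend on length removed, and that of Calr with the trend on length removed among abundant genes.
The other 4 chaperone genes had intervals that include 1. Hyou1, a nucleotide exchange factor of BiP, had 1675 and 1724 counts, a ratio of 1.01. Creld2, an ER protein induced by stress, had 383 counts with IL-36 gamma and 384 in the control, a ratio of 1.04. The other J proteins of BiP did not follow Dnajb11: Dnajb9 (ERdj4) had 400 and 444 counts, a ratio of 0.939 (0.818 to 1.08), and Dnajc3 (p58IPK) had 1266 and 1386, a ratio of 0.952 (0.881 to 1.03).

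All 4 disulfide isomerases had an interval above 1, a call that Pdia6 and Pdia3 kept and Pdia4 and P4hb lost under other settings. Pdia6 (ENSMUSG00000020571, chr12), which acts with BiP, had 3584 counts with IL-36 gamma and 2980 in the control, a ratio of 1.253 (1.19 to 1.32), and its level was 56.3 against 44.9 CPM per kilobase of exon. Pdia3, the ERp57 isomerase that partners calnexin and calreticulin, had 6927 and 6176 counts, a ratio of 1.17 (1.13 to 1.21). Pdia4 (ERp72) had 1129 and 1077 counts, a ratio of 1.09 (1.004 to 1.19). P4hb, the classical protein disulfide isomerase, had 6568 and 6419 counts, a ratio of 1.07 (1.03 to 1.10). The intervals of Pdia4 (0.947 to 1.12) and P4hb (0.986 to 1.06) included 1 with the trend on length removed over all genes. They did so also with the trend on expression removed, where P4hb had a ratio of 1.002, and with total gene counts as the scale.

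The translocon genes were higher for all 3 SEC61 subunits. Sec61g had 771 counts with IL-36 gamma and 653 in the control (ratio 1.23, 1.11 to 1.37), and Sec61b had 761 and 656 (1.21, 1.09 to 1.34). Sec61a1, which encodes the channel pore, had 2370 and 2233 counts (1.11, 1.04 to 1.17). Their intervals overlapped. The order turned when the trend on length was removed among abundant genes, with Sec61a1 at 1.13 (1.06 to 1.20), Sec61g at 1.12 (1.005 to 1.24) and Sec61b at 1.05 (0.947 to 1.17).
Of the translocon-associated protein (TRAP) subunits, which assist the channel, Ssr2 had 1039 and 900 counts (1.20, 1.10 to 1.32), Ssr4 had 1608 and 1439 (1.16, 1.08 to 1.251) and Ssr3 had 3492 and 3372 (1.08, 1.03 to 1.13). Ssr1, the TRAP alpha subunit, had 1601 counts with IL-36 gamma and 1657 in the control, a ratio of 1.01 (0.939 to 1.08). Here too the calls changed with the trend on length removed among abundant genes: Ssr1 then lay above 1 (1.02 to 1.17), while the intervals of Ssr2 (0.975 to 1.17) and Ssr3 (0.989 to 1.09) included 1. Ssr3 also lost its call with total gene counts as the scale and with the trend on expression removed.

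The ERAD genes split. The derlins, membrane proteins that help draw substrates out of the ER, were higher: Derl1 had 3025 counts with IL-36 gamma and 2592 in the control, a ratio of 1.22 (1.15 to 1.28), and Derl2 had 1184 and 1043, a ratio of 1.18 (1.09 to 1.29). Derl3, the derlin typical of secretory cells, had 20 and 15 counts, a ratio of 1.39 (0.676 to 2.92), and no difference was detectable at this depth. Herpud1, a membrane scaffold of the HRD1 ligase and a sensitive gene of the unfolded protein response, had 1931 and 1698 counts, a ratio of 1.19 (1.11 to 1.27).
The selenoprotein gene Selenok had 1448 and 1269 counts, a ratio of 1.19 (1.10 to 1.28), and Selenos, which recruits the p97 ATPase, had 603 and 563, a ratio of 1.12 (0.993 to 1.254). With the trend on length removed among abundant genes, the interval of Selenok included 1 (0.978 to 1.14). The core of the HRD1 ligase stood apart from the derlins. Syvn1, which encodes HRD1, had 1155 counts with IL-36 gamma and 1168 in the control, a ratio of 1.03 (0.949 to 1.12). Sel1l (ENSMUSG00000020964, chr12), its adaptor, had 2442 and 2775 counts, a ratio of 0.917 (0.868 to 0.969), the only ERAD gene with an interval below 1. That interval included 1 with the trend on length removed over all genes (0.931 to 1.04) or among abundant genes (0.917 to 1.02). Edem1, a lectin that hands glycoproteins to ERAD, had 3730 and 3827 counts, a ratio of 1.02 (0.971 to 1.06). Its interval lay above 1 with that trend removed over all genes (1.01 to 1.11).

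The sensors were not higher, but the transcript of the factor they control was. Ern1 (ENSMUSG00000020715, chr11), the gene of the IRE1 alpha kinase and nuclease, had 1214 counts with IL-36 gamma and 1449 in the control, a ratio of 0.873 (0.808 to 0.943). Atf6 had 1431 and 1581 counts, a ratio of 0.943 (0.877 to 1.01). Xbp1 (ENSMUSG00000020484, chr11), whose transcript IRE1 splices into the active form, had 1866 and 1631 counts, a ratio of 1.19 (1.11 to 1.27). Ern1 and Atf6 are long genes. With the trend on length removed over all genes, the interval of Ern1 included 1 (0.863 to 1.007) and Atf6 had 1.02 (0.949 to 1.10). Xbp1 stayed above 1 (1.08 to 1.23). The interval of Atf6 lay below 1 with total gene counts as the scale (0.850 to 0.982) and with the trend on expression removed (0.865 to 0.999). Gene counts do not separate spliced from unspliced Xbp1, so the activity of IRE1 was not measured.

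Ratios of related genes can be set against each other without any scaling, since the library size cancels, but exon length does not. For this, 29 pairs were chosen by known complex, function or pathway, after the values were seen and with no adjustment for their number. Not all are partners in a complex: Xbp1 with Ern1, Pdia6 with P4hb and Dnajb11 with Dnajc3 are among those that are not. The exact 95% interval excluded 1 in 17 of the 29. Pairs of other genes were not examined, so no background share stands beside this count. The ratio of Xbp1 was 1.37 times (1.23 to 1.51) that of Ern1 and 1.26 times (1.15 to 1.40) that of Atf6. In the same measure Derl1 exceeded Sel1l 1.33-fold (1.23 to 1.43), Herpud1 exceeded it 1.29-fold (1.19 to 1.41) and Syvn1 exceeded it 1.12-fold (1.02 to 1.24). Dnajb11 exceeded Dnajc3 1.24-fold (1.12 to 1.37), and Pdia6 exceeded P4hb 1.18-fold (1.11 to 1.248). Dnajb11 and Hspa5 did not differ beyond their interval (1.05, 0.975 to 1.13). Within the SEC61 channel no pair differed beyond its interval: Sec61b against Sec61a1 was 1.09 (0.968 to 1.23). Calr against Canx was 0.993 (0.946 to 1.04). Ssr2 exceeded Ssr1 1.19-fold (1.07 to 1.34).
Several of these pairs set a short gene against a long one. Of the 28 pairs with both genes abundant, the interval excluded 1 in 16, and in 10 of these it still did with the trend on length removed. Xbp1 then exceeded Ern1 1.22-fold (1.10 to 1.35) and Atf6 1.11-fold (1.004 to 1.22). Derl1 exceeded Sel1l 1.18-fold (1.09 to 1.27) and Herpud1 exceeded it 1.10-fold (1.01 to 1.20), while Syvn1 against Sel1l was 1.04 (0.946 to 1.15). Ssr2 against Ssr1 was on the other side of 1, at 0.976 (0.871 to 1.09), and Calr against Canx came to exclude 1 (0.939, 0.894 to 0.986).

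The 4 highest members were the same genes in both libraries. Per kilobase of exon Calr was the highest member, with 188.4 CPM with IL-36 gamma and 173.3 CPM in the control. P4hb followed with 135.1 and 126.7 CPM per kilobase, then Pdia3 with 129.9 and 111.1 and Hspa5 with 106.0 and 94.3. The highest levels thus belong to a lectin chaperone, a pair of isomerases and BiP. The sensor genes lay near the bottom, Atf6 at 9.12 and 9.67 and Ern1 at 8.74 and 10.01 CPM per kilobase, and Derl3 was lowest with 0.591 and 0.425. By counts alone Calr made up 10.91% of the members' sum with IL-36 gamma and 11.03% in the control.

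**Figure D3:**
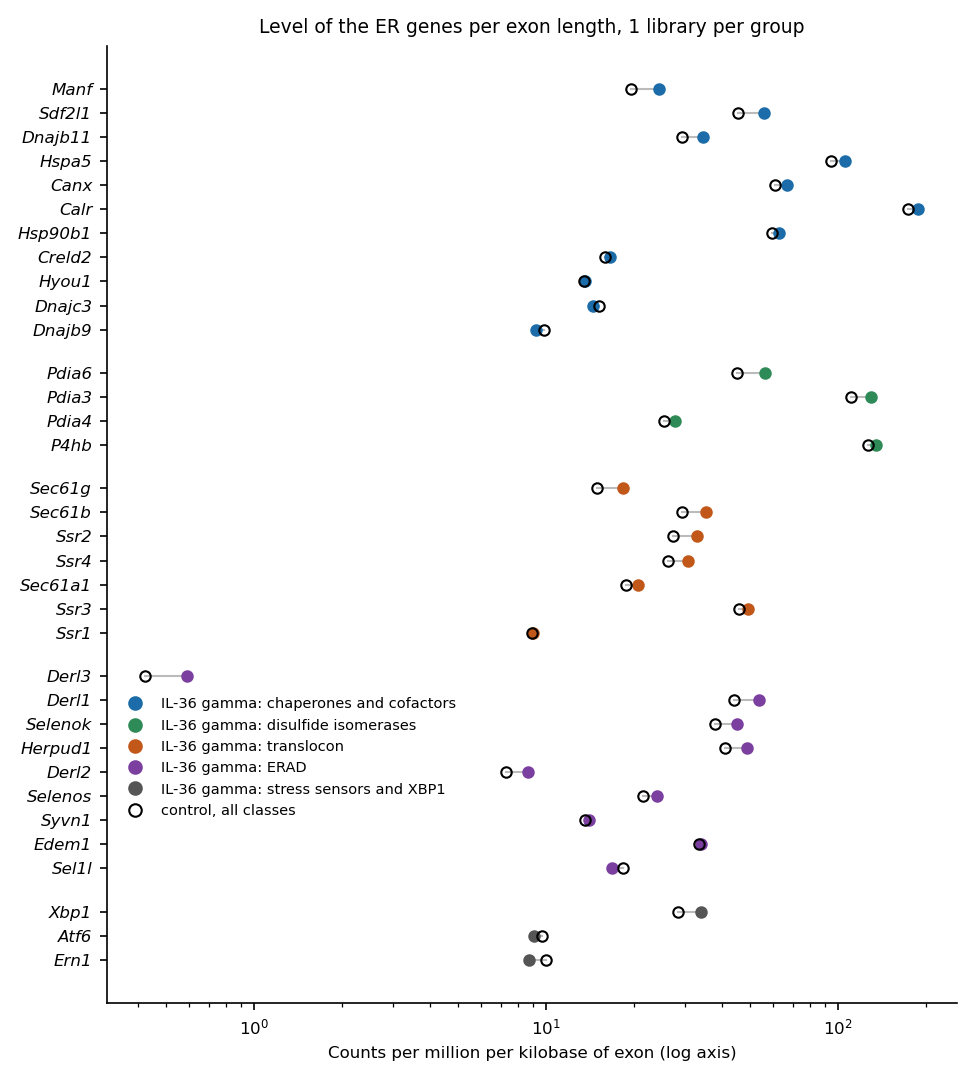
Level of each member in CPM per kilobase of exon (log axis), with the IL-36 gamma library as filled points in the colour of its class and the control library as open circles, 1 library per group. The span from Derl3 (0.591 and 0.425) to Calr (188.4 and 173.3) is wider than the distance between the libraries for any member.

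The ratios followed gene length, among the members as among abundant genes, and less closely over the whole table. Over the 34 members the Spearman correlation of log2 ratio with exon length was -0.56, and over the 5806 abundant genes of known length it was -0.55. Over all 14373 genes tested of known length it was -0.26. These are correlations across genes of the same 2 libraries, which share depth and RNA quality. Abundant genes were cut by length into 10 bins of nearly equal size, and the median log2 ratio was 0.20 in the shortest bin and -0.18 in the longest. The 17 shorter members, of 1108 to 3248 exonic bases, had a median of 0.24 with 13 above 1 and 0 below. The 17 longer members had a median of 0.08 with 9 above 1 and 2 below. Set against abundant genes of their own length bin, 24 of 31 members lay above the bin's median and 15 above its upper quartile. With the trend on length removed among abundant genes, an alternative chosen after seeing the data, 14 of 31 members were above 1 (45.2%) and 1, Ern1, was below (3.23%), against 24.2% and 23.0% of abundant genes. Pdia4 (0.989) and P4hb (0.984) then lay just under 1. The medians of chaperones, isomerases, translocon and ERAD genes were 0.09, 0.05, 0.12 and 0.06, and that of all 31 members was 0.09. Of the 14, 13 were also above 1 before, and the other was Ssr1 (1.09, 1.02 to 1.17). Among the 13 were Derl2 (1.24, 1.14 to 1.35), Pdia6 (1.19, 1.13 to 1.249), Manf (1.17, 1.08 to 1.26), Derl1 (1.14, 1.08 to 1.20), Sec61a1 (1.13, 1.06 to 1.20) and Xbp1 (1.11, 1.04 to 1.19). The 9 members that lost their place above 1 were Calr, Hsp90b1, Sdf2l1, Pdia4, P4hb, Sec61b, Ssr2, Ssr3 and Selenok (1.06, 0.978 to 1.14). Ern1 had 0.916 (0.848 to 0.989), and Sel1l had 0.968 (0.917 to 1.02), an interval that includes 1. With the trend removed over all genes, 0 members had an interval below 1, so neither Ern1 nor Sel1l did. The part of RNA quality or of the library preparation in this trend was not tested.

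**Figure D4:**
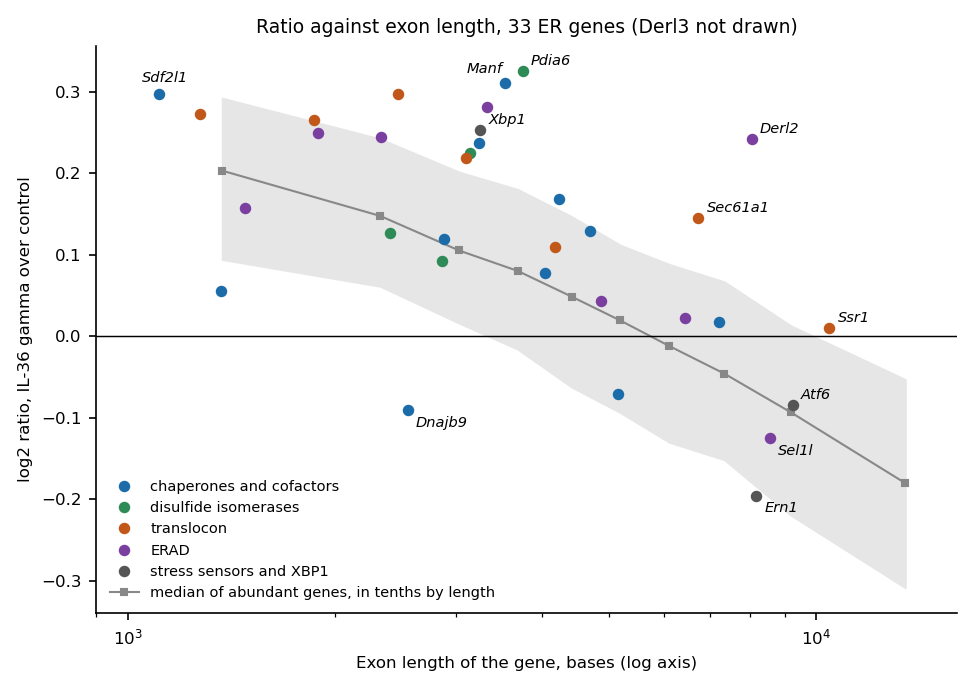
Log2 ratio, IL-36 gamma over control, against exon length (log axis) for 33 members coloured by class, with the median (line) and the lower to the upper quartile (band) of abundant genes in 10 bins by length. Shorter genes lie higher in both, with Derl2, Sec61a1, Pdia6 and Manf among the members above the band at their length and Ern1 and Dnajb9 among those below it.

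Members were also set apart by whether their promoter held a stress element. The 11 members with an ERSE or ERSE-II had a median ratio of 1.09, with 7 above 1 and 0 below, and the 17 members whose window held neither had a median of 1.12, with 11 above 1 and 2 below, beside 19.1% of all genes above 1 and 17.4% below. The groups also differed in median exon length, 3745 bases with an element and 3096 without, and the part of length in these medians was not tested. Of 28 genes outside the list with an ERSE, 7 averaged 10 counts or more, of which 0 were above 1 and 2 below. These are descriptions, and no match says only that the letters are not in that window.

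The rest of the ER pathway, in 10 lists of 160 names written from known function, had medians from 0.02 to 0.18 outside the stress branch that runs through PERK. The oligosaccharyltransferase, which attaches glycans, had 9 of 12 genes above 1 and 0 below (median log2 ratio 0.16). Signal peptidase and recognition particle genes had 9 of 13 above 1 and 1 below (0.18), and other translocation factors 10 of 19 and 0 (0.11). Other isomerases and oxidases had 7 of 16 above 1 and 0 below (0.09), the calnexin cycle 3 of 8 and 1 (0.07) and other ERAD genes 9 of 28 and 2 (0.05). The COPII coat had 7 of 18 above 1 and 3 below (0.04), other luminal chaperones 5 of 16 and 2 (0.02), and partners of ATF6 and IRE1 4 of 12 and 3 (0.06). Against 19.1% of all genes and 33.7% of abundant genes above 1, the shares were 75% for the oligosaccharyltransferase, 69.2% for signal peptidase and recognition particle, 52.6% for other translocation factors and 43.8% for other isomerases. They were near that of abundant genes for the COPII coat (38.9%), the calnexin cycle (37.5%), partners of ATF6 and IRE1 (33.3%), other ERAD genes (32.1%) and other luminal chaperones (31.3%). Once the trend on length was removed among abundant genes, the median was 0.11 for the oligosaccharyltransferase, 0.08 for signal peptidase and recognition particle and 0.05 for other translocation factors. It was 0.05 for other isomerases, 0.01 for other ERAD genes, -0.02 for the COPII coat and -0.04 for partners of ATF6 and IRE1. The medians of the calnexin cycle (0.08) and of other luminal chaperones (0.05) were not lowered. In these lists the only gene past either limit was Serpinh1, a collagen chaperone, with 5 counts with IL-36 gamma and 20 in the control (ratio 0.261, 0.0764 to 0.715).
Of the 14 genes of the PERK and ATF4 branch 10 were above 1 (71.4%) and 0 below, with a median log2 ratio of 0.34. Above the 25% limit lay 4 of the 14, against 1.43% of all genes. This list, like the others, was chosen with earlier results of these data known, so its high place is not independent of them. The median was 0.26 with the trend on length removed over all genes. It was 0.22 among the abundant genes of the list and 0.14 with the trend on length removed there. Asns, Trib3, Ddit3 and Eif2ak3, given below, are not among these abundant genes. The fall from 0.34 to 0.22 thus came with the genes left out, before any removal of the trend on length. Asns, an asparagine synthetase gene driven by ATF4, had 497 counts with IL-36 gamma and 230 in the control, a ratio of 2.25 (1.92 to 2.64). Trib3, a pseudokinase gene, had 257 and 121 counts, a ratio of 2.21 (1.78 to 2.77), and Ddit3, the gene of CHOP, had 508 and 289, a ratio of 1.83 (1.58 to 2.12). The other was Cebpb (5342 and 4040 counts, 1.38, 1.32 to 1.44), named after its value was seen. The gene of PERK itself, Eif2ak3, also named after its value was seen, had 382 and 436 counts, a ratio of 0.913 (0.794 to 1.05). Whether the branches differ was not tested, and ATF4 also answers to signals other than ER stress.

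**Figure D5:**
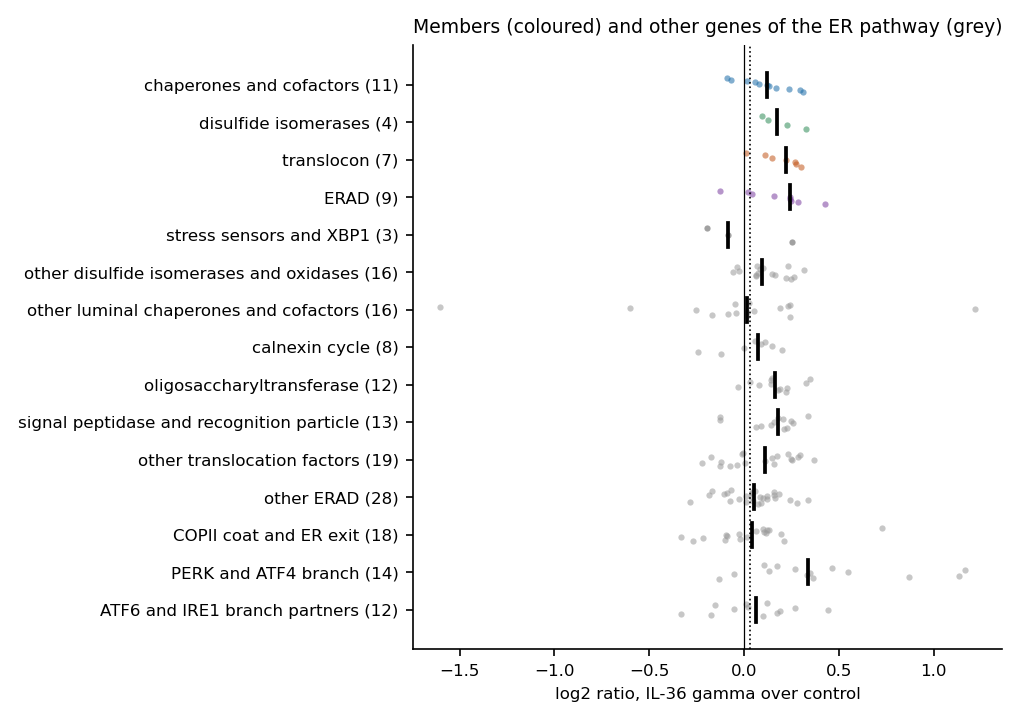
Log2 ratio, IL-36 gamma over control, of each measured gene in the 5 member classes (coloured points) and in 10 other lists of the ER pathway (grey points), with the number of genes in brackets, a black bar at each median and a dotted line at the median of abundant genes. Medians lie between -0.08 and 0.34, with the PERK and ATF4 branch highest. The lists were chosen with earlier results of these data known.

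Some members share sequence with other genes. Sec61b, Sec61g, Selenok and Derl1 have stretches of at least 100 bases at 95% identity or more in 13 other genes, most of them processed pseudogenes, which took 36 counts in all with IL-36 gamma and 28 in the control. Reads that align to more than 1 place are not in these counts, so the levels of these 4 genes may be understated in both libraries. Exons on the opposite strand overlap 12.8% of the exonic bases of Ssr2, 10.3% of Hsp90b1, 8.85% of Manf and 8.16% of Sec61a1. The strand setting of the counting is not known from the labels, so how reads in the shared stretches were divided between these members and their antisense partners is not known. Reads set aside as ambiguous made up 1.84% of the IL-36 gamma library and 1.795% of the control library and are not in these counts. Where reads of the shared stretches were among them, the levels of these members are understated.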

How the data were processed

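The files hold raw counts per Ensembl gene, deposited by the authors without normalization. Per the submitters' processing notes HTSeq, STAR 2.5.0a, Trim Galore 0.6.1 and FastQC 0.11.8 were used, with mm10. The sources used here do not give the HTSeq version, strand setting or annotation release. Each file lists 54446 genes and 5 rows that name no gene, which held 55.1% of the IL-36 gamma library and 55.6% of the control library and were left out. Of the gene IDs, 54409 were matched to GENCODE M21 without their version number. Gene counts came to 17267900 with IL-36 gamma and 17426367 in the control.

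Counts were scaled with TMM factors (0.984 for IL-36 gamma, 1.02 for the control) from edgeR 4.0.16 in R 4.3.3 over genes averaging 10 counts or more. No count model was tested: without replicates no spread can be estimated. The ratio of scaled counts was given an exact 95% Clopper-Pearson interval (scipy 1.17.1), and called where the whole interval lay past 1, or past a 25% increase or the matching ratio of 0.8. Intervals cover counting error only, since reads are not independent molecules and no replicate culture was analysed here. Medians use log2 ratios with a prior count of 2. Levels are CPM per kilobase of merged exons. Ratios between related genes are conditional odds ratios with exact intervals. The interval computation was tested on simulated data. Promoter windows came from RefSeq (GRCm38.p6), and near copies from blastn 2.17.0 against GENCODE M21 transcripts. The named genes are all members and, of each other list, up to 3 genes past those limits in each direction, and, of other cell types, markers at 0 in both libraries and the highest one. The members, lists and call rules were chosen with earlier results of these data known. Alternatives were other scalings (DESeq2 1.42.0 size factors among them), count filters, lowess trends (span 0.3) on expression, length or GC content, folds, interval levels and prior counts.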

Additional observations from a re-analysis of the deposited data

How the results depend on the processing

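Of the alternative values of the counts of members and of the medians over members and classes, 130 kept within their limits: within 1.5 times for a count, and inside the counting interval of the gene or genes at the middle for a median. The 10 others were these. With total gene counts as the scale, 4 members were below 1 and the chaperone median log2 ratio was 0.0739, while the median of all genes moved by -0.0459. With the trend on expression removed the chaperone median was 0.0510. With the trend on exon length removed over all genes, 0 members were below 1 and the stress sensor median was 0.0289. With the trend on length removed among genes averaging 500 counts or more, chosen after seeing the data, 14 members were above 1 and 1 below, and the medians were 0.0533 for isomerases, 0.116 for the translocon and 0.0606 for ERAD, while the ratios of Pdia4 (0.989) and P4hb (0.984) crossed 1. The cause of the trend was not tested. No member lay past the 25% limit, 1.5-fold or 2-fold, or their inverses, in any alternative run. A filter at 500 counts left out Dnajb9, Creld2 and Derl3, and one at 50 left out Derl3. No paired analysis was possible because each group has 1 library. Depth limits Derl3 most.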
